A study of Mus musculus with 4 samples.

Results

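The genes described here regulate cyclic nucleotide and G protein signals in cultured mouse macrophages. They were chosen by gene symbol alone, as the phosphodiesterases (Pde), adenylyl cyclases (Adcy), regulators of G protein signalling (Rgs), subunits of protein kinase A (PKA, Prka) and A-kinase anchoring proteins (Akap). The rule found 68 members among the 18256 symbols counted, namely 21 Pde, 10 Adcy, 17 Rgs, 6 PKA and 14 Akap genes. RNA-seq was made from 4 libraries of bone marrow-derived macrophages, 2 of M0 and 2 of M1 cells. All cells were wild type, and marrow was grown for 7 days in macrophage colony-stimulating factor (MCSF) at 20 ng/ml. M0 cells were left unstimulated, and M1 cells received 20 ng/ml interferon-gamma (IFN-γ) with 100 ng/ml lipopolysaccharide (LPS) for 24 h. The labels give no strain, sex or age of the mice, and they do not say whether MCSF was present during stimulation. They also do not say that the 2 libraries of a group came from separate animals or cultures, so a p-value here speaks only for the spread of these libraries, which may be technical.

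Cyclic AMP is made by adenylyl cyclases when a receptor coupled to the G protein Gs is occupied, and it is broken down by phosphodiesterases. It acts mainly through PKA, whose regulatory subunits hold the catalytic subunits inactive and whose place in the cell is set by anchoring proteins. RGS proteins speed the hydrolysis of GTP on G alpha subunits and so end the signal of many G protein-coupled receptors, chemokine receptors among them. In macrophages, cyclic AMP is known as a brake on the release of tumour necrosis factor after LPS. Not every member fits the label. Pde6d encodes a carrier of lipid-modified proteins and no phosphodiesterase, and Pde12 encodes an enzyme that degrades oligoadenylates.

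Library totals ran from 15921466 to 18987705 counts, and member counts made up 0.286% to 0.305% of each M0 library and 0.217% to 0.228% of each M1 library. Of the macrophage markers, 8 of 8 were tested, with 3 higher (Fcgr1, Itgam and Adgre1) and 3 lower (Mrc1, Mertk and Cd68). Their summed level was 20730.4 to 22986 CPM (counts scaled to a common library size) in M0 and 27859 to 28305 CPM in M1. Most of that sum was Lyz2, which did not pass (14427 and 16580 CPM in M0, 18555 and 17595 CPM in M1). The summed levels of several other lists were lower in M1. Neutrophil markers summed to 239 and 250.1 CPM in M0 against 149.5 and 110 CPM in M1, with 1 higher and 6 lower of 8 tested. Dendritic cell markers summed to 190 and 170 CPM against 61.9 and 71.5 CPM, with 1 higher and 4 lower of 5 tested. T and NK cell markers summed to 23.3 and 21.6 CPM against 6.15 and 6.34 CPM, with 1 lower of 2 tested. The dendritic and the T and NK sums were mostly Itgax and Cd4, which macrophages can also express, and Cd3g and Ncr1 were at 0 in every library. Stromal markers summed to 715 and 692 CPM in M0 and to 458 and 519 CPM in M1, with 3 higher and 3 lower of 6 tested. Erythroid and megakaryocyte markers summed to 29.2 and 32.4 CPM in M0 and 76.7 and 62.6 CPM in M1, with 1 higher and 1 lower of 4 tested, and the rise of the sum was that of Pf4 (15.8 and 19.1 CPM against 71.4 and 57.1 CPM). Of the marker calls above, Retnlg, Elane, Mpo, Cd209a, Zbtb46, Siglech and Epor, all lower, passed the filter on counts only through M0. Xcr1, called higher, passed it only through its M1 counts, so none of these calls adds support. Mast cell markers were near the floor, at 1.48 to 2.89 CPM. The part of these cells in the results was not tested. In bulk libraries, fewer cells of a type and less RNA per cell cannot be told apart.

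Of the 68 members, 50 had enough counts to be tested, and the other 18 are accounted for at the end. The test between M1 and M0 was the quasi-likelihood test of edgeR with Benjamini-Hochberg adjustment over all 12966 genes tested, at an adjusted p of 0.05. Members higher in M1 numbered 9 and members lower in M1 18, while 23 did not pass. Pde1c and Rgs17, among the lower, and Pde10a, among the higher, passed the filter only through the group where they are high. Among all genes tested, 24.2% were called higher, 24.0% lower and 48.2% in either direction, against 54% of tested members in either direction. The share of members called was thus near the background. Members called with a fitted fold of at least 2 numbered 7 higher, where 9.93% of all genes tested were, and 11 lower, where 11.6% were. The M0 and M1 libraries did not overlap for 42 of the 50 tested members, and for 74.9% of all genes tested. The median log2 fold change (M1 over M0) was -0.30 over tested members and -0.02 over all genes tested. By family, 9 of 15 Pde, 3 of 6 Adcy, 10 of 12 Rgs, 3 of 6 PKA and 2 of 11 Akap genes passed, and whether the families differ was not tested. With either M0 replicate left out, fewer members were called in both directions, and so were fewer of all genes. The Pde and the Rgs genes called were fewer too. The counts also depend on the scaling. With library totals in place of TMM factors (trimmed mean of M-values) the median of all genes shifted by -0.25, the calls among all genes were 29.8% higher where the main scaling gave 50.3%, and the members split into 7 higher and 26 lower. Pde genes called lower then numbered 8 and Akap genes 5, and with upper-quartile factors they numbered 8 and 4. Of all 12966 genes tested, 4776 were called lower with library totals and 3745 with upper-quartile factors, against 3108 with the main scaling.

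**Figure D1:**
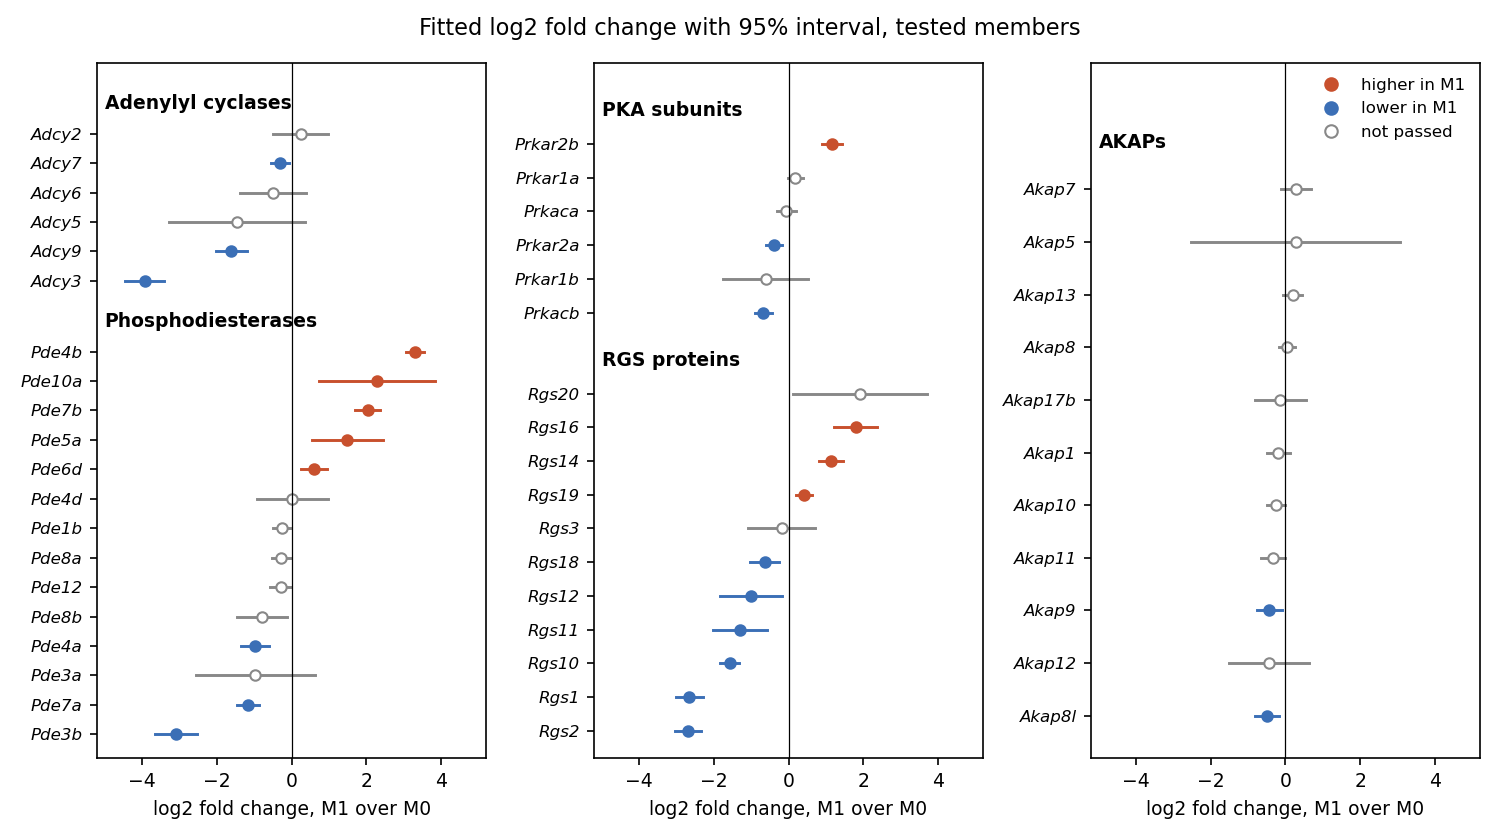
Fitted log2 fold change of M1 over M0 for 48 of the 50 tested members, by family, with 95% intervals as lines; filled points passed an adjusted p of 0.05 and open points did not. Pde4b sits farthest to the right and Adcy3 farthest to the left, and 9 of the 11 tested Akap genes are open points; the 2 members with no count in M1, Pde1c and Rgs17, are left out.

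The cyclic AMP-specific phosphodiesterases split in opposite directions. Pde4b, the Pde4 gene known to be induced by LPS in monocytes and macrophages, had 20.2 and 21.8 CPM in the M0 libraries and 199 and 215 CPM in the M1 libraries. Both M1 libraries were far above both M0 libraries, a 9.86-fold rise (log2 3.30, 95% interval 3.05 to 3.55, adjusted p = 1.56e-09). Pde7b, a high-affinity cyclic AMP enzyme, had 11.7 and 11.9 CPM in M0 and 43.8 and 52.8 CPM in M1, again without overlap. It rose 4.09-fold (log2 2.03, SE 0.15, adjusted p = 8.82e-07). Its paralogue Pde7a went the other way, from 42.0 and 40.9 CPM in M0 to 17.97 and 18.7 CPM in M1. That was a 2.26-fold fall (log2 -1.17, SE 0.13, adjusted p = 2.97e-05). Pde4a, a second Pde4 gene, had 31.7 and 26.6 CPM in M0 and 16.6 and 13.2 CPM in M1. It was lower in both M1 libraries (log2 -0.97, adjusted p = 0.000798), but not past the threshold without M0 replicate 1, where the adjusted p of 0.0564 was the highest of its 12 alternatives (lowest 2.47e-06). Pde4d, the third Pde4 gene tested, had 3.21 and 1.97 CPM in M0 and 2.22 and 3.08 CPM in M1. The groups overlapped, and the interval of its log2 fold change, -0.92 to 0.96, left room for a near 2-fold change either way.

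RefSeq start windows of Pde4b are shown because it had the largest rise among the members. The gene lies on the plus strand of chromosome 4 (GRCm38, 102087543 to 102607259), and the RefSeq promoter table (GRCm38.p6) holds 4 of its start sites. The 2 windows shown hold one of the motifs searched, on either strand: the cyclic AMP response element (CRE) TGACGTCA, its core TGACG, the gamma-activated site TTCNNNGAA, and the kappa-B consensus. The other 2 windows hold none. Each is the 250 bases before a start, 5′ to 3′ on the strand of the gene, with the motif in capitals. The sequence at chr4:102421305-102421554 has a CRE core 34 bases before the start, read on the opposite strand, and that at chr4:102569810-102570059 has a gamma-activated site 150 bases before the start.
Pde4b window 1: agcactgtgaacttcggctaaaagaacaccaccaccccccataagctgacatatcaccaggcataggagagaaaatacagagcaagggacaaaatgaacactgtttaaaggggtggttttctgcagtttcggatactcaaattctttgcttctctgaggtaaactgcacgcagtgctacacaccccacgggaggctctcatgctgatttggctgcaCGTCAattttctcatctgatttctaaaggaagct
Pde4b window 2: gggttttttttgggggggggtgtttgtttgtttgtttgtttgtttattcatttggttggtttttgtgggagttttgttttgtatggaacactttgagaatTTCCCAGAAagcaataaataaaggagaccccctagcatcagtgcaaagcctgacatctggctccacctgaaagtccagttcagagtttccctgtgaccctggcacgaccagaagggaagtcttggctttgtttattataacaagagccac
In 32851 RefSeq promoter windows of 300 bases, the CRE core occurred in 20.8%, the full CRE in 1.79%, the gamma-activated site in 8.30% and the kappa-B consensus in 2.46%. The table matched 55 of the 68 members with 102 windows, of which 20.6% held the CRE core, 1.96% the full CRE, 10.8% the gamma-activated site and 1.96% the kappa-B consensus. The core is contained in the full CRE, so windows with the full site count in both. A match is a run of letters and not a measured site, and counts per gene do not show which start was used.

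The other cyclic AMP-specific enzymes, Pde8a and Pde8b, did not pass the test. Pde8a had 52.9 and 55.3 CPM in M0 and 44.1 and 45.0 CPM in M1 (log2 -0.28, interval -0.53 to -0.03, adjusted p = 0.0638). Pde8b, at 5.66 and 6.55 CPM in M0 and 4.06 and 3.01 CPM in M1, had a log2 fold change of -0.78 (interval -1.45 to -0.11, adjusted p = 0.0529). Both M1 libraries were below both M0 libraries for each gene. Pde8b was called lower without M1 replicate 1 (log2 -1.01, adjusted p = 0.0377, range over its 12 alternatives 0.0134 to 0.234), and with no filter. Both genes were called lower with library totals or upper-quartile factors.

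Among phosphodiesterases that accept both cyclic AMP and cyclic GMP, Pde3b fell most among those with counts in both groups. Pde3b, which cyclic GMP inhibits and which is known for its part in the insulin response of fat and liver, had 36.3 and 29.7 CPM in M0 and 2.65 and 5.11 CPM in M1. The groups were far apart, an 8.51-fold fall (log2 -3.09, SE 0.26, adjusted p = 2.28e-06). Pde1b, a calcium and calmodulin-dependent enzyme, had 112 and 105 CPM in M0 and 92.1 and 89.0 CPM in M1. The M1 libraries were lower without overlap, but the adjusted p of 0.0558 (log2 -0.26, interval -0.48 to -0.03) missed the threshold. It passed with limma-voom (0.0499), with the stricter filter (0.0493), with upper-quartile factors and with library totals, but not with RLE factors. Over its 12 alternatives the adjusted p of Pde1b ran from 0.00159 to 0.28. Pde1c, its paralogue, had 46 and 20 counts in the M0 libraries and none in either M1 library. With M1 set at 3 counts over the group it was at least 18.8-fold lower. It passed the filter only through its M0 counts, so it had to differ, and its adjusted p of 0.000989 adds no support; without M0 replicate 1 the adjusted p was 0.059, the highest of its 12 alternatives (lowest 1.41e-05). Pde10a, a dual enzyme best known from the striatum, had 0.384 and 0.232 CPM in M0 and 2.03 and 1.05 CPM in M1. It was called higher (log2 2.28, SE 0.70, adjusted p = 0.0206), but a gene so low in M0 passed the filter on its M1 counts. The call was lost without M0 replicate 1 (0.117), M0 replicate 2 (0.172) or M1 replicate 1 (0.225), with adjusted p from 0.0199 to 0.225 over its 11 alternatives. Pde3a had a log2 fold change of -0.98 (interval -2.57 to 0.62, adjusted p = 0.291).

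The cyclic GMP enzyme Pde5a, the target of sildenafil, had 1.44 and 1.51 CPM in M0 and 5.23 and 3.08 CPM in M1. It was higher in both M1 libraries (log2 1.49, SE 0.43, adjusted p = 0.0141). The call was lost without M0 replicate 1 (0.129), M0 replicate 2 (0.114) or M1 replicate 1 (0.152), with adjusted p from 0.00207 to 0.152 over its 12 alternatives. Of the members that are not cyclic nucleotide enzymes, Pde6d was higher in M1 (log2 0.59, adjusted p = 0.00998). Its call was lost without M0 replicate 1 (0.107), without M0 replicate 2 (0.0651) and with library totals (0.0957), in a range of 0.00489 to 0.107 over 12 alternatives. Pde12 did not pass (log2 -0.29, interval -0.58 to 0.00, adjusted p = 0.089), but it was called lower with upper-quartile factors (0.0277) and with library totals (0.00483).

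Levels of different genes were compared as CPM per kilobase of annotated exon, since longer transcripts yield more reads. On that scale the summed level of the 19 phosphodiesterases without Pde6d and Pde12 was 52.0 and 49.8 in M0 and 56.8 and 58.2 in M1. Per kilobase of exon the sum was slightly higher in both M1 libraries, and its make-up changed far more. Without division by length, the same genes summed to 321 and 304 CPM in M0 and 430 and 450 CPM in M1. The size of the rise thus depends on how length is treated. Pde4b was 3.68% and 4.16% of the sum in M0 and 33.2% and 35.0% in M1, and within the 4 Pde4 genes it went from 30.0% and 35.9% to 88.7% and 91.2%. In M0 the most abundant were Pde1b, at 40.0% and 38.9%, and Pde8a, at 25.2% and 27.5%. In M1 Pde4b stood above Pde1b, at 30.1% and 28.3%, and Pde8a, at 19.2% and 19.1%. Pde7b made up 14.7% and 15.4% of the Pde7 pair in M0 and 60.3% and 63.7% in M1. The cyclic AMP-specific genes together went from 51.5% and 53.8% of the phosphodiesterase sum to 68.1% and 69.8%, and the dual-substrate genes from 48.1% and 45.8% to 30.9% and 29.6%. These shares carry no test, and they describe transcripts and not enzyme activity. With the longest transcript as the length, the mean Pde4b share was 7.23% in M0 and 48.4% in M1.

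**Figure D2:**
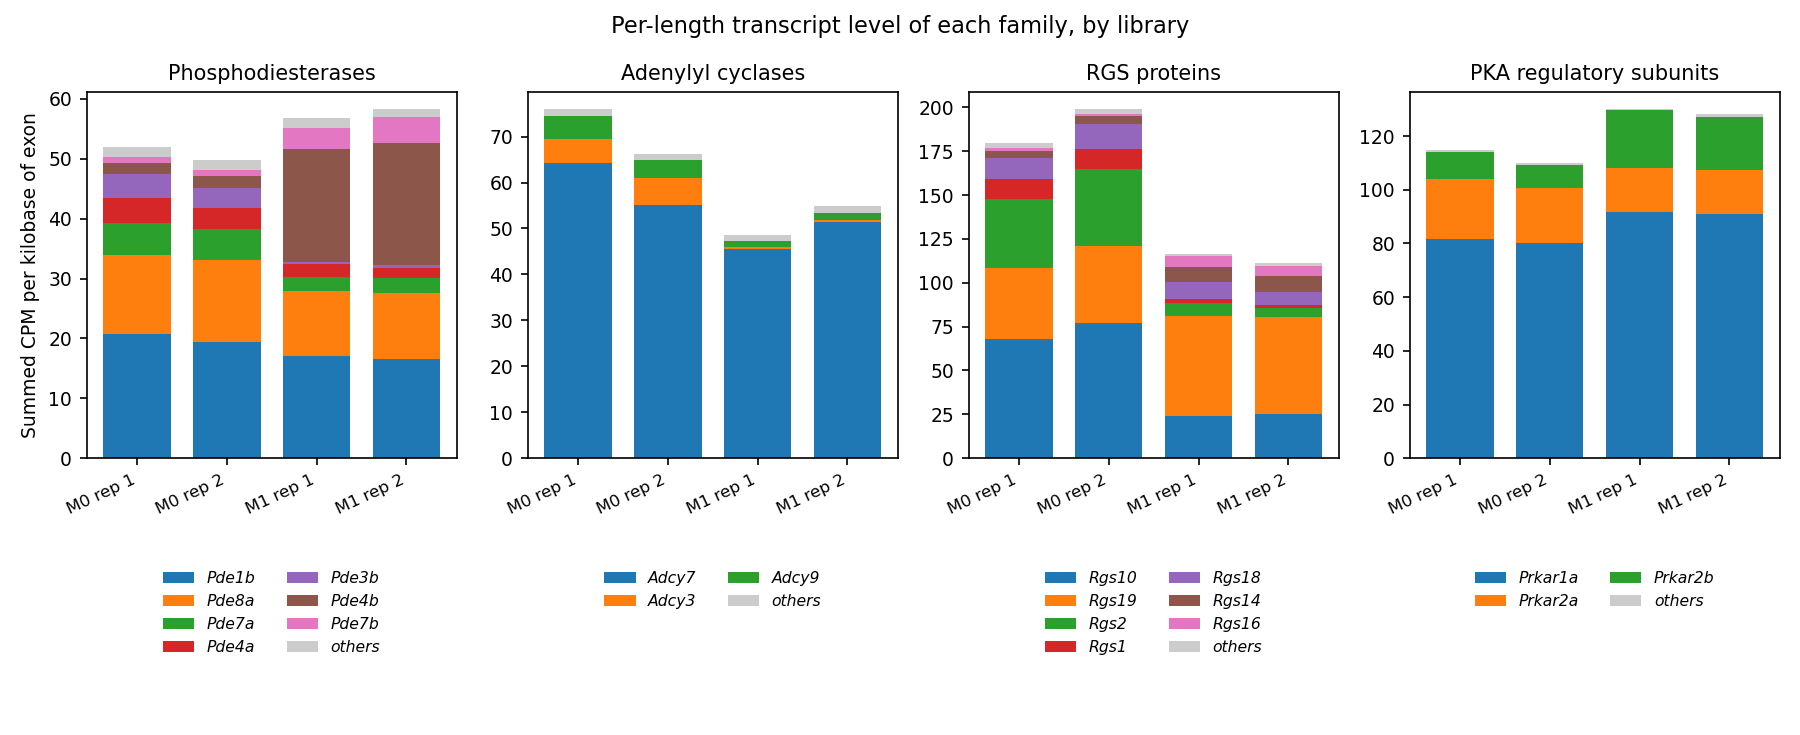
Summed CPM per kilobase of exon in each library for phosphodiesterases, adenylyl cyclases, RGS genes and PKA regulatory subunits, with the leading genes in colour and the remaining genes in grey. Pde4b grows from 3.68% and 4.16% to 33.2% and 35.0% of the phosphodiesterase bar, and the RGS bar is shorter in both M1 libraries.

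Of the 6 adenylyl cyclase genes tested, 3 were lower in M1 and 3 did not pass, beside 24.0% of all genes tested called lower and 48.2% in either direction. Adcy3, a calcium and calmodulin-stimulated cyclase known from olfactory neurons and primary cilia, had the largest fall of a member with counts in both groups. It had 32.8 and 36.8 CPM in M0 and 1.66 and 2.89 CPM in M1, a 15.2-fold fall (log2 -3.93, interval -4.45 to -3.41, adjusted p = 1.46e-07). The 2 M1 libraries differed from each other far less than from either M0 library. In the GENCODE annotation of GRCm38, 22.1% of the exon bases of Adcy3 overlap Cenpo on the opposite strand, and the strand setting of the counting is not given in the sources used here, so reads of the pair may not be separable there. Adcy9, a widely expressed cyclase that forskolin stimulates poorly, had 25.2 and 20.8 CPM in M0 and 7.69 and 7.32 CPM in M1. It fell 3.06-fold without overlap (log2 -1.62, SE 0.19, adjusted p = 3.04e-05).

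The Adcy3 start window is shown because of the size of that fall. Adcy3 lies on the plus strand of chromosome 12 (4133103 to 4213525). The sequence at chr12:4133147-4133396 of GRCm38.p6, 250 bases before the start on the strand of the gene, holds a gamma-activated site 238 bases before the start, in capitals, and no other motif searched.
Adcy3 window 1: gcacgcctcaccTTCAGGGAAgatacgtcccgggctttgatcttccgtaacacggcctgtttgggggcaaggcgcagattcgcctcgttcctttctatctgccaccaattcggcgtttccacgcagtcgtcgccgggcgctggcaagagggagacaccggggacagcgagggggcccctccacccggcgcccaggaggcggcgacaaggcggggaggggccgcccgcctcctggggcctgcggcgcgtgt
The second Adcy3 window in the table holds no motif searched.

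Adcy7, the cyclase most typical of blood cells and one that G beta-gamma subunits stimulate, had most of the cyclase transcripts. It had 433 and 371 CPM in M0 and 307 and 346 CPM in M1, a log2 fold change of -0.30 (interval -0.54 to -0.06, adjusted p = 0.0414). The groups did not overlap, but the gap between M0 replicate 2 and M1 replicate 2 was smaller than the spread within either group. Among the fits without a library, the call was lost without M0 replicate 1 (0.357), without M0 replicate 2 (0.0919) and without M1 replicate 1 (0.168), in a range of 0.00155 to 0.357 over 12 alternatives. Per kilobase, the cyclases summed to 75.9 and 66.2 in M0 and 48.6 and 54.8 in M1, and the groups did not overlap. Adcy7 was 84.7% and 83.2% of that sum in M0 and 93.8% in both M1 libraries, while Adcy3 went from 6.93% and 8.90% to 0.547% and 0.845%. Adcy2, Adcy5 and Adcy6 did not pass, with log2 fold changes of 0.24, -1.45 and -0.50, and the interval of Adcy5 (-3.28 to 0.37) leaves a large fall possible.

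Of the 12 RGS genes tested, 3 were higher and 7 lower, against 24.2% and 24.0% of all genes tested. In the R4 subfamily of small RGS proteins, Rgs2 and Rgs1 fell together and Rgs16 rose. Rgs2, which acts chiefly on Gq, had 144 and 159 CPM in M0 and 27.9 and 19.2 CPM in M1. It fell 6.44-fold (log2 -2.69, interval -3.04 to -2.33, adjusted p = 1.37e-07). Rgs1, a regulator of Gi and Gq known to blunt chemokine receptor signals in leukocytes, had 77.7 and 78.7 CPM in M0 and 14.8 and 10.1 CPM in M1. Its fall of 6.29-fold (log2 -2.65, SE 0.17, adjusted p = 2.14e-07) was near that of Rgs2. Rgs16, another regulator of Gi and Gq, had 4.84 and 3.13 CPM in M0 and 15.0 and 12.9 CPM in M1. It rose 3.47-fold without overlap (log2 1.80, SE 0.26, adjusted p = 0.000178). In the annotation, 10.1% of the exon bases of Rgs16 overlap the gene Gm28513 on the opposite strand. Rgs3 did not pass (log2 -0.18, interval -1.08 to 0.72).

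Rgs2, Rgs1 and Rgs18 are neighbours on the minus strand of chromosome 1 (GRCm38), at 143999338 to 144004161, 144242296 to 144249242 and 144752683 to 144775435, within a span of 776 kb. All 3 were lower in M1. Rgs18, an RGS gene typical of platelets and other blood cells, had 24.4 and 29.1 CPM in M0 and 19.5 and 14.8 CPM in M1. It was the least changed of the 3 (log2 -0.64, adjusted p = 0.0121). Its call was lost without M0 replicate 1 (0.0801), M0 replicate 2 (0.18) or M1 replicate 2 (0.0798), with adjusted p from 0.00127 to 0.18 over 12 alternatives. Of the erythroid and megakaryocyte markers, Pf4 was called higher and Epor lower. Epor passed the filter only on its M0 counts (132 and 73, against 4 in each M1 library), so its call adds no support. Rgs13 and Rgs21, which the annotation places between Rgs2 and Rgs18, are not analysed here. Rgs16, which rose, lies farther along the same chromosome on the plus strand, at 153740349 to 153745468. The Rgs2 start window, chr1:144004150-144004399 of GRCm38.p6 on the minus strand, is shown, and Rgs1 and Rgs18 have no RefSeq promoter window here. Rgs2 had the highest level per kilobase of these neighbours in M0. In M1 Rgs18 was higher, at 9.61 and 7.27 CPM per kilobase against 7.69 and 5.29 for Rgs2. The annotated exons of Rgs1 merge into 1 block of 6947 bases, its whole span, so its level per kilobase may be understated. The Rgs2 window holds the CRE core 185 bases before the start on the opposite strand and again 67 bases before the start on the strand of the gene, both in capitals.
Rgs2 window 1: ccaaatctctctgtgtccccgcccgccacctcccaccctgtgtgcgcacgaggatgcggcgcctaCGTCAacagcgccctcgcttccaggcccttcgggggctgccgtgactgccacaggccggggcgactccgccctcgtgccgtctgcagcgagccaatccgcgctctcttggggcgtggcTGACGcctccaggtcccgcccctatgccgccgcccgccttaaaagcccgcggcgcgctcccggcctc
It holds no full CRE, gamma-activated site or kappa-B consensus.

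In the R12 subfamily, Rgs10 fell and Rgs14 rose. Rgs10, a small Gi regulator enriched in microglia and macrophages, had 116 and 132 CPM in M0 and 40.7 and 42.7 CPM in M1. The libraries of each group lay close together, and the fall was 2.96-fold (log2 -1.57, SE 0.11, adjusted p = 7.18e-07). Rgs14, a multidomain protein that also binds Ras family GTPases, had 16.2 and 18.02 CPM in M0 and 35.9 and 39.5 CPM in M1. It rose 2.21-fold without overlap (log2 1.14, SE 0.14, adjusted p = 6.6e-05). Rgs12, the largest of this subfamily, had 3.55 and 5.91 CPM in M0 and 2.22 and 2.46 CPM in M1 (log2 -1.01, adjusted p = 0.0474). That call was lost in each of the 4 fits without a library, at 0.0637 without M0 replicate 1, 0.322 without M0 replicate 2, 0.113 without M1 replicate 1 and 0.0759 without M1 replicate 2. It was also lost with DESeq2 (0.0767) and limma-voom (0.0761), in a range of 0.0156 to 0.322 over 12 alternatives.

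Rgs19, a Gi regulator of the RZ subfamily, had 90.7 and 98.1 CPM in M0 and 127 and 124 CPM in M1. It was higher without overlap (log2 0.41, adjusted p = 0.006), but the call was lost without M0 replicate 1 (0.108), without M0 replicate 2 (0.0581) and with library totals (0.204), in a range of 0.00268 to 0.204 over 12 alternatives. Rgs17, of the same subfamily, had 30 and 13 counts in M0 and none in M1, at least 12.2-fold lower with M1 at 3 counts over the group. It too passed the filter only through its M0 counts, so its adjusted p of 0.00281 adds no support. Without M0 replicate 2 its adjusted p was 0.0518, the highest of its 10 alternatives (lowest 0.000506), and without M0 replicate 1 it was not tested. Rgs20, the last of the subfamily, did not pass (log2 1.91, interval 0.12 to 3.71, adjusted p = 0.0742). Rgs11, an R7 protein that needs the G beta subunit Gnb5 for its stability, had 6.81 and 6.37 CPM in M0 and 2.03 and 3.32 CPM in M1 (log2 -1.30, SE 0.33, adjusted p = 0.00732). The Rgs11 call was lost without M0 replicate 1 (0.108) or M0 replicate 2 (0.085), in a range of 0.000517 to 0.108 over 12 alternatives. Gnb5 itself was lower too, at 10.8 and 10.5 CPM in M0 and 3.88 and 3.32 CPM in M1 (log2 -1.56, adjusted p = 0.000356).

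Per kilobase of exon, the RGS genes summed to 179.6 and 199 in M0 and 116 and 111 in M1. The sum was lower in both M1 libraries and was led by another gene. Rgs10 was first in M0, at 37.7% and 38.8%, and fell to 20.5% and 22.5% in M1. Rgs19 went from 22.6% and 22.1% to 49.0% and 50.04%, the largest share in M1. Rgs2 went from 22.1% in both M0 libraries to 6.61% and 4.76%. The R4 subfamily as a whole went from 36.3% and 35.8% to 22.4% and 17.9%. The exon length used for Rgs1, an R4 gene, was its whole span, so its part of these sums may be understated.

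**Figure D3:**
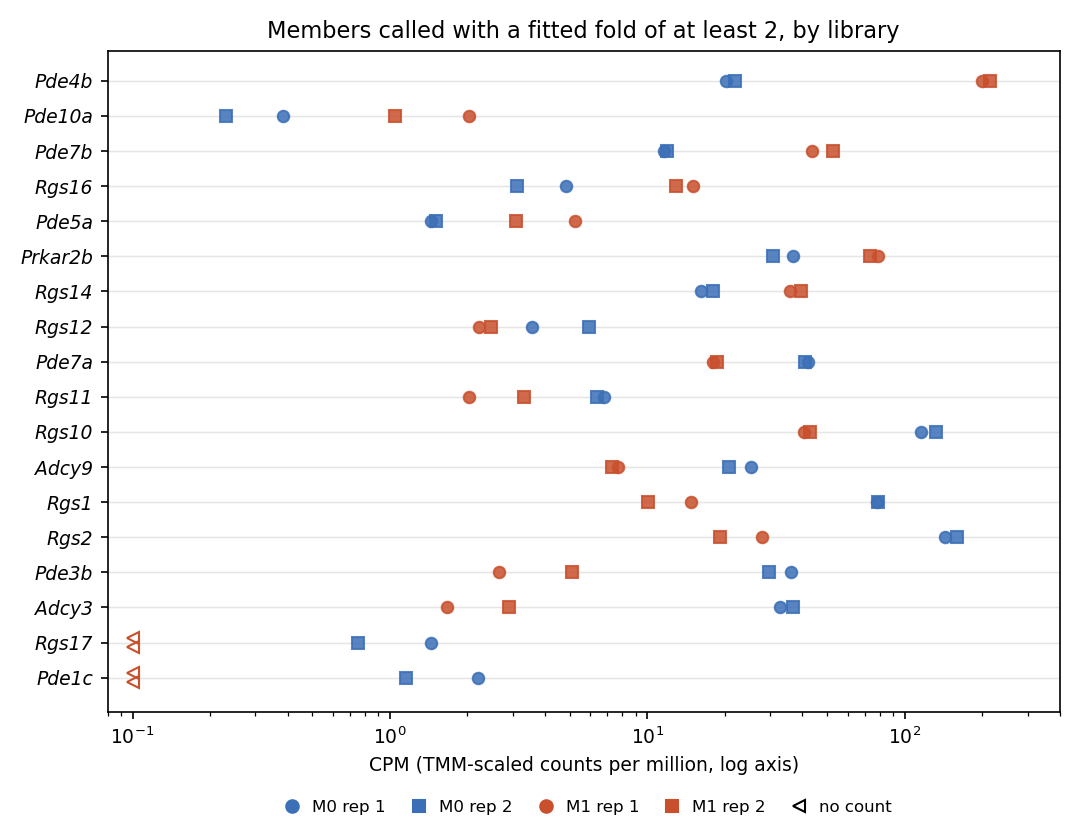
CPM on a log axis in each of the 4 libraries for the 18 members called with a fitted fold of at least 2; circles and squares are replicates 1 and 2, and open triangles stand for libraries with no count. The M0 and M1 points of each gene are apart, as for Pde4b at 20.2 and 21.8 against 199 and 215 CPM, and Pde1c and Rgs17 have no count in M1.

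Of the 6 PKA subunit genes, 1 was higher and 2 were lower, against 24.2% and 24.0% of all genes tested. The regulatory subunit gene Prkar2b had 36.7 and 30.9 CPM in M0 and 78.8 and 73.1 CPM in M1. It rose 2.24-fold without overlap (log2 1.17, SE 0.13, adjusted p = 1.89e-05). Prkar2a, the other type II regulatory subunit, had 142 and 129.8 CPM in M0 and 104 and 103 CPM in M1 (log2 -0.39, adjusted p = 0.00805). Its call was lost without M0 replicate 1 (0.124) or M0 replicate 2 (0.0589), in a range of 0.000301 to 0.124 over 12 alternatives. The 2 type II genes thus differed in direction, and together they were 28.2% and 26.2% of the regulatory sum per kilobase in M0 and 29.2% and 28.3% in M1. Within that sum Prkar2b went from 8.77% and 7.69% to 16.6% and 15.6%, and Prkar2a from 19.4% and 18.5% to 12.6% and 12.7%. Prkar1a, the main type I subunit, made up 71.2% and 73.0% in M0 and 70.6% and 71.1% in M1. Prkar1a had 353 and 347 CPM in M0 and 396 and 393 CPM in M1, and did not pass (log2 0.18, interval -0.02 to 0.38, adjusted p = 0.133). Its log2 fold change was -0.077 with library totals.

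Of the catalytic subunits, Prkacb had 202 and 193 CPM in M0 and 130.2 and 118 CPM in M1. It fell 1.59-fold without overlap (log2 -0.67, SE 0.10, adjusted p = 0.00022). Prkaca had 83.6 and 75.1 CPM in M0 and 71.1 and 81.5 CPM in M1. The Prkaca groups overlapped (log2 -0.06, interval -0.31 to 0.20, adjusted p = 0.721), and the interval does not reach a fall as large as that of Prkacb. With library totals Prkaca was called lower (log2 -0.31, adjusted p = 0.0487). Whether the 2 genes differed from each other was not tested. Prkar1b, little expressed, had a log2 fold change of -0.60 (adjusted p = 0.36), which was -0.01 without M1 replicate 1 and -1.61 without M1 replicate 2, where it was called lower (adjusted p = 0.0418, range over 12 alternatives 0.0418 to 0.984).

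The anchoring proteins were the family with the smallest share of calls, 18.2% against 48.2% of all genes tested. Akap8l, a nuclear relative of Akap8, was lower in M1 (log2 -0.48, adjusted p = 0.0187), and so was Akap9, a large scaffold of the Golgi and centrosome (log2 -0.43, adjusted p = 0.0356). Neither call held without M0 replicate 1, at 0.0643 for Akap8l and 0.359 for Akap9, or without M0 replicate 2, at 0.155 and 0.113. Akap8l was also lost without M1 replicate 2 (0.063) and Akap9 without M1 replicate 1 (0.204), in ranges over 12 alternatives of 0.00133 to 0.155 and 0.00311 to 0.359. Akap13, a large scaffold protein, had 174 and 152 CPM in M0 and 171 and 201 CPM in M1. The groups overlapped (log2 0.19, interval -0.06 to 0.44, adjusted p = 0.192), and with library totals its log2 fold change was -0.061. Akap12, also called gravin, had 1.73 and 2.90 CPM in M0 and 1.42 and 1.97 CPM in M1, with overlap (log2 -0.44, interval -1.50 to 0.62). The 9 anchoring genes that did not pass had log2 fold changes from -0.44 to 0.28. Among them, Akap11 was called lower without M1 replicate 2 (log2 -0.51, adjusted p = 0.0138, range over 12 alternatives 0.00589 to 0.532), with no filter, with upper-quartile factors and with library totals. Akap10 was called lower with both of these scalings and Akap1 with library totals.

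The calls of 13 members held under every alternative in which they were fitted. These were Pde4b, Pde7b, Prkar2b, Rgs14 and Rgs16 among the genes that rose, and Adcy3, Adcy9, Pde3b, Pde7a, Prkacb, Rgs1, Rgs2 and Rgs10 among those that fell. The calls of the other 14 were lost in at least 1 alternative, and for 10 of these only when a library was left out. Calls among all genes also became fewer when a library was left out. How large a share of all called genes held under every alternative was not computed.

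Below the filter were 18 members with at most 12 counts in a library. They were Adcy1, Adcy4, Adcy8 and Adcy10, then Akap3, Akap6 and Akap14, then Pde1a, Pde2a, Pde4c, Pde6a, Pde6b and Pde11a, then Rgs4, Rgs5, Rgs8, Rgs9 and Rgs22. Only Pde1a had no count in any library. Akap6 had 19 counts over the M0 libraries and none in M1, 5.40-fold lower with M1 set at 3 counts over the group. Pde2a had 8 and none, 2.27-fold lower on the same setting. In the other direction, with M0 set at 3 counts, Rgs4 had 6 counts over the M1 libraries and none in M0 (2.345-fold higher). Pde11a had 4 and none (1.563-fold higher). Adcy8, Akap14, Rgs5 and Rgs22 also had counts in M1 only, at most 2 each. These folds take the counts of the higher group as exact. In the annotation 64.3% of the exon bases of Pde2a are shared with Gm45837 on the same strand, so its reads may not be assignable there. A level of 3 counts corresponds to 0.144 to 0.185 CPM, so lower expression of these genes was not detectable at this depth.

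Other genes of the pathway were read from lists, upstream to downstream, and each count stands beside 24.2% of all genes tested called higher and 24.0% called lower. Of receptors coupled to Gs, 10 were tested, with 6 higher and 3 lower. Adora2a, an adenosine receptor, rose from 1.20 and 1.10 CPM in M0 to 74.1 and 81.8 CPM in M1 (log2 6.07, adjusted p = 5.41e-10), more than any member. Hrh2, a histamine receptor, rose from 0.575 and 0.811 CPM to 12.1 and 9.78 CPM (log2 3.98). Adrb1, a beta-adrenergic receptor, had 20 and 14 counts in M0 and none in M1, at least 9.67-fold lower. It passed the filter only on its M0 counts, so its call adds no support, and the call was lost without M0 replicate 2. Vipr1, another of the 3 lower, also passed the filter only on its M0 counts (30 and 38, against 0 and 8 in M1). Of 10 G alpha genes tested 2 were lower and 8 did not pass. Gna12 fell (log2 -1.50, adjusted p = 2.59e-07), and Gnaq, the alpha subunit on which Rgs2 acts, was lower (log2 -0.68, adjusted p = 0.00054). The Gnaq call was lost without M0 replicate 1 (adjusted p = 0.057, range over 12 alternatives 2.65e-06 to 0.057). Of 9 G beta and gamma genes tested 3 were higher and 3 lower. The largest changes were in Gnb5, in Gng7 (log2 -1.52) and in Gng2 (log2 -1.41, adjusted p = 2.02e-06). The 3 higher were Gnb1, Gnb2 and Gng12, and the list summed to 810 and 876 CPM in M0 and 1210 and 1196 CPM in M1. The Gng7 call was lost without M0 replicate 1 (0.0689) or M0 replicate 2 (0.0684), over a range of 0.00109 to 0.0689.

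Of 12 receptor kinases, arrestins and other G protein regulators tested, 4 were higher and 4 lower. Grk2, the main receptor kinase, rose (log2 0.70, adjusted p = 0.000121), and Arrb1, the arrestin beta-arrestin 1, fell (log2 -0.89, adjusted p = 7.65e-05). Grk4 was lower (log2 -2.01, adjusted p = 0.0185), a call lost in each of the 4 fits without a library. In those fits its log2 fold change ran from -2.235 to -1.759. Grk4 passed the filter only on its M0 counts (33 and 38, against 7 and 8 in M1), so its adjusted p adds no support. Of 6 other cyclic AMP effectors, transporters and PKA inhibitors tested, 2 were higher and 2 lower. Rapgef3, the exchange factor Epac1, fell from 3.88 and 3.59 CPM to 0.369 and 0.246 CPM (log2 -3.57, adjusted p = 0.000243). It passed the filter only on its M0 counts (81 and 62, against 6 and 4 in M1), so its adjusted p adds no support. Abcc4, a cyclic nucleotide exporter, rose (log2 1.35, adjusted p = 7.51e-06), and Pkib, a PKA inhibitor, fell (log2 -1.27, adjusted p = 3.45e-06). Of 4 genes of the cyclic GMP pathway tested, the exporter Abcc5 rose (log2 1.55, adjusted p = 1.91e-06) and the natriuretic peptide receptor Npr2 was lower (log2 -1.52, adjusted p = 0.0443). Npr2 passed the filter only on its M0 counts (48 and 49, against 21 and 8 in M1), so its adjusted p adds no support. The Npr2 call was lost with DESeq2 (0.0637) and without M0 replicate 1 (0.178), M0 replicate 2 (0.259) or M1 replicate 2 (0.207), in a range of 0.0185 to 0.259, and its log2 fold change was -2.37 without M1 replicate 1. The phosphodiesterase-named scaffold Pde4dip (myomegalin) rose (log2 0.76, adjusted p = 0.000183).

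Of 11 CREB family factors and their partners, 1 was higher and 3 were lower, and 7 did not pass. Crem, a CREB relative, was lower (log2 -1.10, adjusted p = 0.002), as were Creb1 (log2 -0.62, adjusted p = 0.000897) and the coactivator Ep300 (log2 -0.37, adjusted p = 0.0443). The Crem call was lost without M0 replicate 2 (0.0613, range 1.71e-05 to 0.0613), and that of Creb1 without M0 replicate 1 (0.0516, range 3.52e-05 to 0.0516). Ep300 was lost without M0 replicate 1 (0.387), M0 replicate 2 (0.179) or M1 replicate 1 (0.277), in a range of 0.00189 to 0.387. Of 9 genes commonly listed as CREB targets and tested, 2 were higher, 2 lower and 5 did not pass. Nr4a2, an orphan nuclear receptor, was higher (log2 1.06, adjusted p = 0.0129) and the clock gene Per1 fell (log2 -0.99, adjusted p = 0.000321). The Nr4a2 call was lost without M0 replicate 1 (0.0825) or M0 replicate 2 (0.0876), in a range of 0.00376 to 0.0876. Crem stands in both lists.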

How the data were processed

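The 4 libraries, 2 of M0 and 2 of M1 macrophages, were deposited as counts of reads per gene symbol, made by the authors. The submitters' processing notes name featureCounts, Subread 2.0.1, the build mm10, DESeq2 1.30.1 and R 4.0.4. RNA was depleted of ribosomal RNA, per the labels' protocols. The annotation, the strand setting and any filter are not given in the sources used here.

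From the counts, genes were kept by filterByExpr with a minimum count of 10 and a total of at least 15, so that 12966 were tested and 5290 were not. The edgeR 4.0.16 quasi-likelihood test in R 4.3.3 compared M1 with M0, with TMM factors from 0.911 to 1.10, no block and Benjamini-Hochberg adjustment over all genes tested. The common dispersion was 0.0118, a coefficient of variation of 10.9%. CPM used library totals times TMM factors, and fold changes are fitted values; intervals are 95%. Depth per library was 15921466 to 18987705 counts, where 3 counts are 0.144 to 0.185 CPM. Folds against a group with no count are lower bounds at 3 counts over that group. They cover the counting error of that group only and take the counts of the other group as exact. Symbols were matched to GENCODE M21 on GRCm38 for exon length and overlap (68 of 68 members).

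Every called member with a log2 fold change of at least 1 in size and at least 1 CPM in the higher group was named, with fixed members whatever they did, and up to 3 called genes a pathway list with the largest change. The members, roles, lists and tests were chosen with earlier results of these data known. Alternatives were DESeq2 1.42.0, limma-voom (limma 3.58.1), RLE, upper-quartile and library-total scaling, no filter, a stricter filter, a replicate block and leaving out each library. The fits were first tested on simulated data.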

Additional observations from a re-analysis of the deposited data

How the results depend on the processing

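With 2 libraries a group and 2 residual degrees of freedom, small fold changes are at the limit of the test, and members under about 1 CPM at that of depth. Leaving out each library, the members called ran from 5 to 9 higher and 8 to 17 lower, and all genes from 1691 to 2965 higher and 1463 to 2854 lower. With library totals 7 members were higher and 26 lower, and 2026 and 4776 of all genes were; with the RLE factors, DESeq2, limma-voom and both filters the member counts stayed within 1.5 times. Same-numbered libraries did not deviate together (correlation of deviations -0.14 over 12966 genes), so the numbers were not taken as pairs. A replicate block gave 9 members higher and 17 lower (all genes 2957 and 2975), with Adcy7 at an adjusted p of 0.0763 by the edgeR test. The crossed pairing, chosen after seeing the data, gave 11 and 24 (3648 and 3627).

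Signs that changed were all of members that did not pass. With library totals the log2 fold change was -0.011 for Adcy2, -0.061 for Akap13, -0.21 for Akap8, -0.23 for Pde4d and -0.077 for Prkar1a. With upper-quartile factors it was -0.059 for Akap8 and -0.083 for Pde4d. Leaving out each library, it ran from -0.63 to 1.13 for Akap5, from -0.28 to 0.42 for Pde4d and from -0.15 to 0.037 for Prkaca. With the longest transcript as length, mean shares in M0 and M1 were 7.23% and 48.4% for Pde4b, 3.25% and 9.04% for Pde7b, 7.24% and 14.4% for Prkar2b, 48.01% and 27.4% for Rgs10, 21.3% and 48.003% for Rgs19, and 94.2% in M1 for Adcy7. The cause was not tested beyond the construction of each alternative.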
